A study of Mus musculus with 46 samples.

Results

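Expression of 9 genes of hepatic glucose production, out of 55416 genes in the count tables, was followed by bulk RNA sequencing across 46 livers of male mice. They are the 9 rows whose Ensembl identifiers carry the symbols G6pc, Slc37a4, Pck1, Pcx, Fbp1, Pygl, Slc2a2, Gcgr and Ppargc1a, chosen by name as the enzymes, carriers and regulators of this pathway. During a fast the liver makes glucose from lactate, glycerol and amino acids (gluconeogenesis) and releases it from stored glycogen. Glucagon acts through its receptor and cAMP to raise transcription of the key enzymes, and insulin after a meal represses them.

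The livers fell into 10 groups. In the Plvap line (Plvaptm1.1Salm-Tg(Lrat-cre)1Rshw on C57BL/6JBomTac), Plvap, which encodes the diaphragm protein of endothelial fenestrae and caveolae, is deleted by a Cre driven from Lrat, a gene of the vitamin A storing stellate cells. Littermates served as controls, and the labels do not say whether they carry the Cre. Chow-fed mice of this line were either fasted 12 h (6 controls, 5 knockouts) or fasted 10 h and refed for 2 h (4 controls, 4 knockouts). The western diet, given for 6 weeks together with fructose water, covered 5 controls and 4 knockouts. The high-fat diet, given for as many weeks with plain water, covered 5 controls and 5 knockouts, and both diet cohorts were fasted 12 h. A separate experiment set 4 whole-body Cav1 knockouts (STOCK Cav1tm1Mls/J, lacking the caveolar coat protein caveolin) against 4 wild-type C57BL/6N mice. All of them were fed chow and fasted 6 h, and genotype and mouse stock differ together. Ages are not given in the labels, and replicate letters name separate livers without saying which came from 1 litter.

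Libraries held from 6656342 to 23311539 counts, and all 9 genes passed the filter on low counts in every fit. Plvap lay between 4.04 and 11.4 normalized counts (CPM, scaled per sequencing depth) in the Plvap knockouts and between 18.9 and 42.0 in their controls, without overlap. Cav1 lay between 0.413 and 1.49 CPM in its knockouts and between 3.63 and 5.84 in the wild types. Of 8 hepatocyte markers 7 were found, with a summed level of 49000 to 113000 CPM. Markers of other organs that run gluconeogenesis were low: the 5 kidney tubule markers summed to at most 2.86 CPM, and the intestinal list consisted almost wholly of Fabp2 (38.9 to 913 CPM), with Vil1, Sis, Lct and Cdx2 at 0.726 CPM or less. The 5 adipocyte markers, listed because fat also expresses Pck1, summed to between 0.0589 and 28.0 CPM. The refed livers come from a table of their own with 0% mitochondrial counts, against 5.79%, 4.18% and 5.31% in the other 3 tables. Of 17 genes that reach 1 CPM elsewhere and are at 0 in the whole refed table, 14 are mitochondrial. Every contrast of refed or diet-fed with chow-fasted livers spans 2 tables, and there condition and table cannot be told apart. In bulk liver, fewer cells of a type and less RNA per cell cannot be told apart either.

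Levels per kilobase of exon order the members by abundance. Averaged within the chow-fasted controls, Pck1, which turns oxaloacetate into phosphoenolpyruvate, was highest at 1043 ± 97.9 CPM per kb (SD, n = 6). Fbp1, which removes a phosphate from fructose bisphosphate, followed at 888 ± 173 CPM per kb. G6pc, the catalytic unit that frees glucose from glucose 6-phosphate, stood at 190.8 ± 58.3. Pcx, which makes oxaloacetate from pyruvate, and Gcgr, the glucagon receptor, were close to each other at 112.4 ± 20.0 and 112.1 ± 4.72. Slc37a4, which carries glucose 6-phosphate into the endoplasmic reticulum, was at 48.2 ± 11.2, Pygl, the liver glycogen phosphorylase, at 38.2 ± 3.24 and Slc2a2, the hepatocyte glucose transporter, at 29.9 ± 9.39. Ppargc1a, a coactivator of gluconeogenic transcription, was far lower at 2.77 ± 1.01 CPM per kb.

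**Figure D1:**
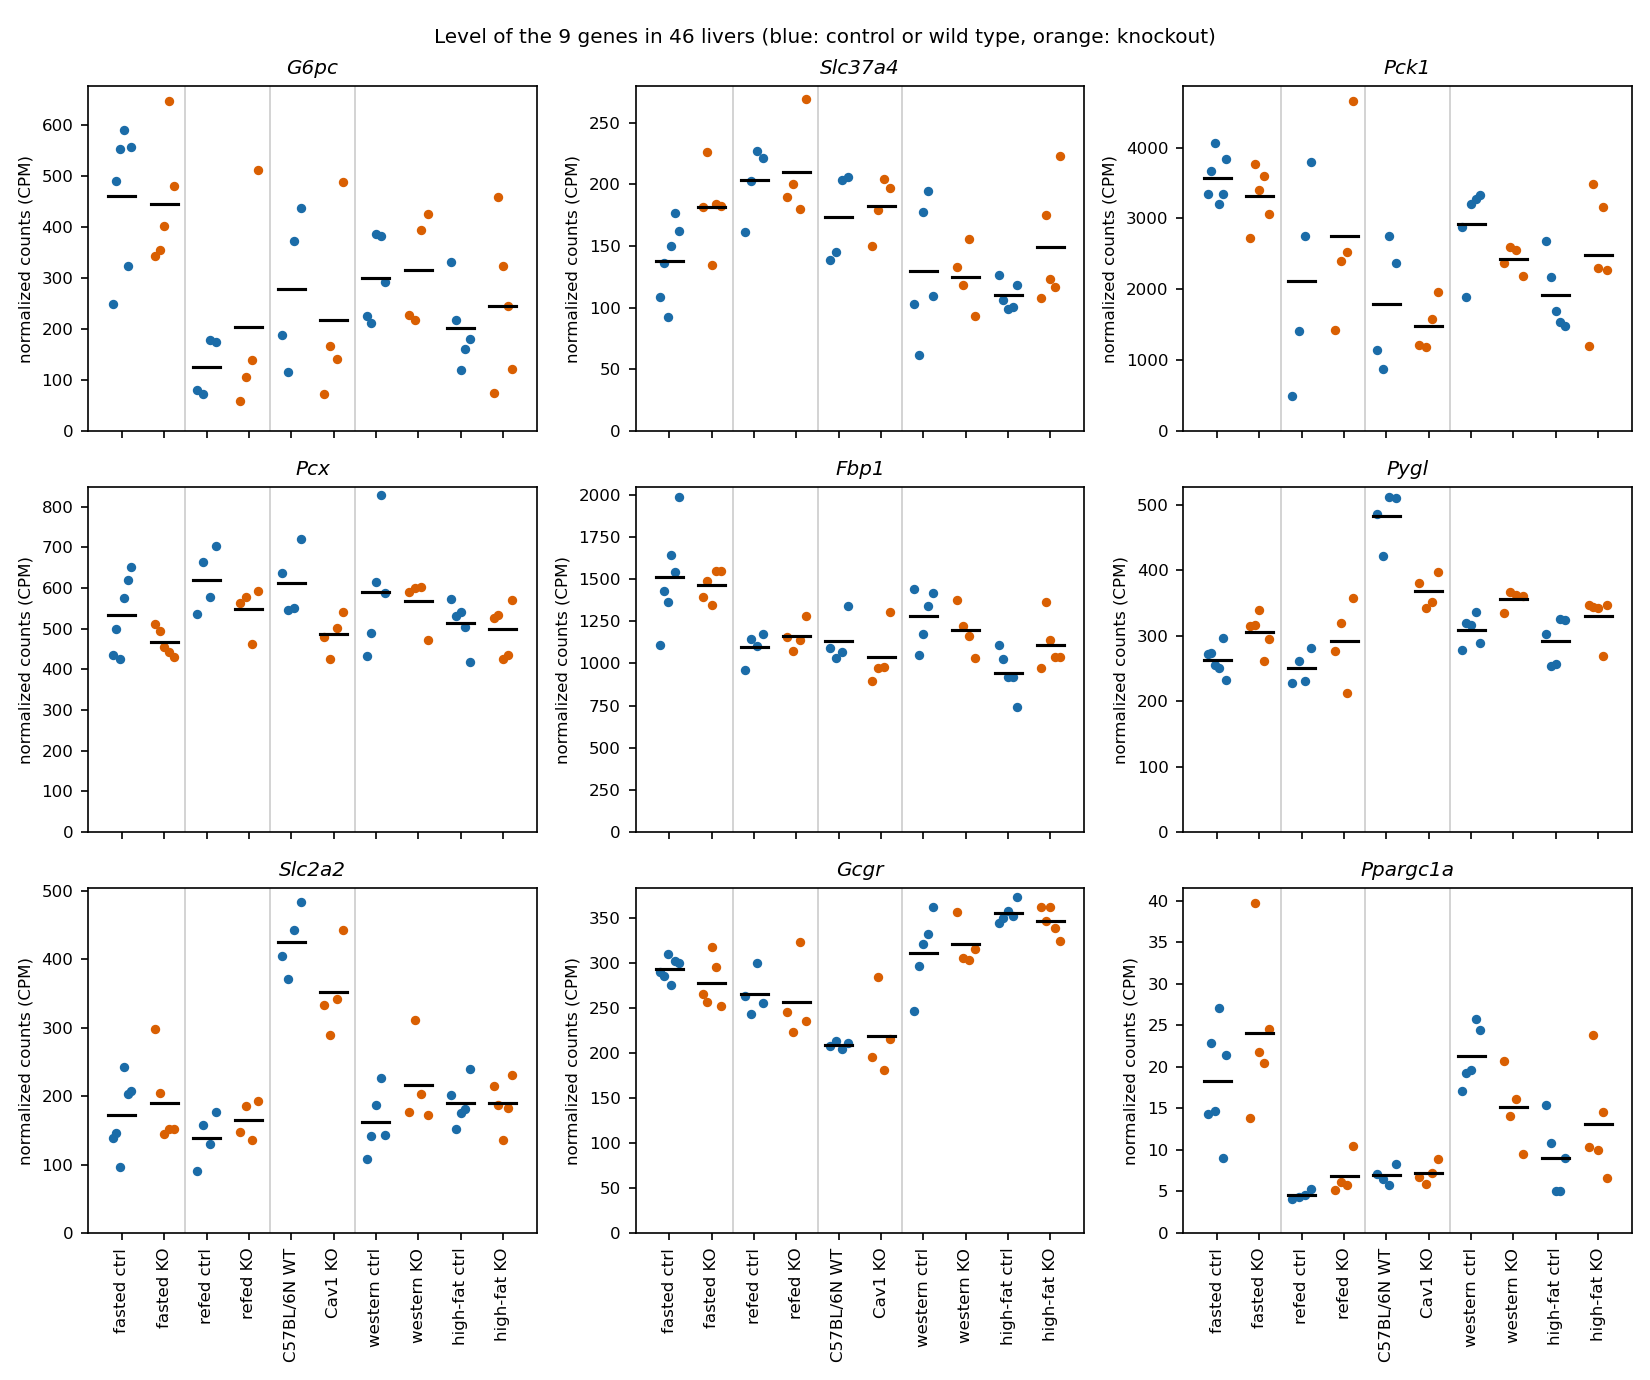
Normalized counts (CPM, linear axis from 0) of the 9 genes in each of 46 livers, 1 panel per gene and 1 column per group. Points are livers, horizontal bars group means, and vertical lines separate the 4 count tables. Pck1 in the chow-refed controls runs from 501 to 3792 CPM, while Ppargc1a in the same livers stays between 4.06 and 5.31 CPM.

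The members differed in how much their level moved between groups. The ratio of the highest to the lowest group mean was 5.26 for Ppargc1a, 3.66 for G6pc, 3.07 for Slc2a2, 2.41 for Pck1, 1.93 for Pygl, 1.91 for Slc37a4, 1.70 for Gcgr, 1.60 for Fbp1 and 1.33 for Pcx. Spread between livers of 1 group was also unequal, with a median coefficient of variation of 43.0% for G6pc and 32.8% for Ppargc1a against 8.44% for Gcgr and 9.10% for Pygl. G6pc, Pck1 and Fbp1 had their highest group mean in the chow-fasted controls. G6pc, Pygl, Slc2a2 and Ppargc1a had their lowest in the chow-refed controls, Fbp1 and Slc37a4 in the high-fat controls, Pck1 in the Cav1 knockouts, Gcgr in the wild types and Pcx in the chow-fasted knockouts. When the 10 group means of a gene were put in order, the livers of neighbouring groups overlapped in all 9 neighbouring pairs for 8 genes. The exception was Pygl, whose Cav1 knockouts (343 to 398 CPM) and C57BL/6N wild types (422.6 to 512 CPM), the 2 highest groups, did not overlap.

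The wild types of the Cav1 experiment stood apart from the Plvap line in level for the glucose transporter, the glycogen phosphorylase and the glucagon receptor. Pygl was at 422.6 to 512 CPM in the wild types, above the highest liver of the Plvap line at 367 CPM. In the Cav1 knockouts Pygl was at 343 to 398 CPM. Slc2a2 was at 404.5, 371, 443 and 484 CPM in the wild types and at 333, 289, 342 and 442 CPM in the Cav1 knockouts, against 90.5 to 311 CPM in the 38 livers of the Plvap line. Gcgr was at 208, 214, 205 and 211 CPM in the wild types, below the lowest liver of the Plvap line at 223 CPM. With normalization factors computed within each table the wild-type mean of Gcgr was 230 CPM, against 209 CPM with joint factors. The chow-fasted knockout mean became 255 CPM instead of 277.5 CPM, and single livers are not given for that setting. In the Cav1 knockouts Gcgr was at 195, 285, 181 and 215 CPM with joint factors, where knockout B lay within the range of the Plvap line. Knockout B was also the only Cav1 knockout with Slc2a2 inside that line's range. These groups differ from the others in stock, fasting time and table at once, which cannot be told apart.

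The promoters of G6pc, Pck1 and Ppargc1a are shown because these genes are textbook targets of cAMP and insulin signalling, and each had a lower mean in refed than in fasted livers. Each run is the 250 bases before the RefSeq start site in the GRCm38.p6 table, 5′ to 3′ on the gene's strand, with matches to the searched motifs in capitals. Exact letters were searched on both strands. The core of the cAMP response element was TGACGT. For forkhead factors the core TGTTTAC was used, and for the insulin response unit, which forkhead factors also bind, the core TGTTTTG. The TATA box was searched as TATAAA, and none of these motifs contains another. All 9 members matched a promoter entry.
G6pc (GRCm38.p6, chr11:101367466-101367715, + strand): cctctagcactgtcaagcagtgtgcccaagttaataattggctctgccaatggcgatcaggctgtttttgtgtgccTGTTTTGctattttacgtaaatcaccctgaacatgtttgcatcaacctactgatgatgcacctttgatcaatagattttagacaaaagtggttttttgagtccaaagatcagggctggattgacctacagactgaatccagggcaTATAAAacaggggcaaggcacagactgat
Pck1 (GRCm38.p6, chr2:173152823-173153072, + strand): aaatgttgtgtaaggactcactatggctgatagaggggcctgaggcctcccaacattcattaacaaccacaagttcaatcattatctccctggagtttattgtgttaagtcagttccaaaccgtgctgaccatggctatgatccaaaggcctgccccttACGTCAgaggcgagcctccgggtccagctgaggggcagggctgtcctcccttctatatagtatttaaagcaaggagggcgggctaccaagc
Ppargc1a (GRCm38.p6, chr5:51567726-51567975, − strand): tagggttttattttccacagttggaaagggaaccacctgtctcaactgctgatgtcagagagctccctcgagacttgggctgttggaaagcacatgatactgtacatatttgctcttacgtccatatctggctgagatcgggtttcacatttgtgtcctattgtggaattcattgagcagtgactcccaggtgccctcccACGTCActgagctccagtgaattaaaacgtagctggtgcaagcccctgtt
The G6pc window holds TGTTTTG at -174 and TATAAA at -29, counted to the first letter from the start site. The Pck1 and Ppargc1a windows hold the cAMP core on the opposite strand, at -91 and -50. Of 32851 promoter windows of 300 bases in the table, 7.51% hold TGACGT, 3.65% TGTTTAC, 6.28% TGTTTTG and 13.6% TATAAA. Slc37a4, with 3 listed starts, holds TGACGT in 2 overlapping windows and TATAAA in the other, and the windows of Pcx, Fbp1, Pygl, Slc2a2 and Gcgr hold none of the 4. A match is a description of the letters, not a measured binding site.

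None of the 9 genes passed the threshold between Plvap knockouts and controls in any single feeding state or diet. Beside these counts stands the share of all genes called, as background. The test was edgeR's quasi-likelihood F-test with Benjamini-Hochberg adjusted p under 0.05 over all genes, and it is the test behind every adjusted p given for a gene below. On chow after a 12 h fast 0 of 9 members were called, where 2.25% of 12840 genes were. After refeeding 0 of 9 were called, against 0.0227% of all genes (3 genes, and 30 with the replicate letter as a block), on western diet 0 of 9 against 0.0148%, and on high-fat diet 0 of 9 against 0.281%. At an unadjusted p under 0.05 there were 2 members in the fasted, 1 in the refed and 0 in each diet comparison. Over all genes that threshold was met by 2262 of 12840, 1024 of 13228, and 1325 and 1873 of 13533 on western and high-fat diet. DESeq2 called 0 members in each of the 4. Median log2 fold changes of the 9 were -0.05, 0.22, -0.05 and 0.24 in that order, beside medians of -0.01, 0.01, -0.02 and 0.01 over all genes.

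On chow after the 12 h fast, Pck1 ranged from 3198 through a median of 3511 to 4064 CPM in the 6 fasted controls and was at 2728, 3771, 3408, 3598 and 3062 CPM in the 5 knockouts. The groups overlapped, and the log2 fold change was -0.12 ± 0.11 (SE; 95% interval -0.35 to 0.12). For G6pc the fasted controls ran from 248.7 through 522 to 591 CPM and the knockouts were at 342, 354, 401, 647 and 481 CPM, a log2 difference of -0.05 with an interval of -0.57 to 0.46. Fbp1 differed by -0.05 (-0.31 to 0.21) and Pcx by -0.20 (-0.45 to 0.04) on the log2 scale. Slc37a4 lay from 92.8 through 143 to 177 CPM in the controls and at 181, 226, 135, 184 and 182 CPM in the knockouts. Of these 5 knockout livers 4 were above all controls, and the log2 fold change of 0.39 ± 0.16 had an adjusted p of 0.211. With no filter on low counts that p was 0.00982, and with the replicate letter as a block, although the letters do not pair these livers, 0.0254.

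In refed livers G6pc and Pck1 spread so widely that a change of genotype could not be resolved. G6pc was at 79.7, 71.6, 178 and 175 CPM in controls A to D and at 58.95, 106, 139 and 511 CPM in knockouts A to D. Knockout D alone stood above all controls by more than their own range, and the log2 fold change of 0.69 had an interval of -0.88 to 2.26. Pck1 was at 501, 1415, 2756 and 3792 CPM in controls A to D and at 1421, 2399, 2521 and 4662 CPM in knockouts A to D. In both genotypes liver A was lowest and liver D highest; same-lettered refed livers also deviated together across all genes. With the letter as a block 0 of 9 members were called in refed livers. Ppargc1a had a log2 fold change of 0.60 ± 0.23 after refeeding, with an unadjusted p of 0.0229 and an adjusted p of 0.596.

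On both diets the 95% intervals included 0 for all 9 genes. On western diet the largest log2 differences were -0.51 for Ppargc1a (-1.23 to 0.22) and 0.41 for Slc2a2 (-0.02 to 0.84). Slc2a2 was at 109, 142, 187, 226 and 144 CPM in the western controls and at 176, 311, 203 and 173 CPM in the knockouts, with overlap. On high-fat diet the largest were 0.50 for Ppargc1a (-0.21 to 1.21) and 0.44 for Slc37a4 (-0.10 to 0.99). High-fat knockout A had the lowest G6pc (74.0 CPM) and Pck1 (1199 CPM) of its group and knockout B the highest (459 and 3489 CPM).

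**Figure D2:**
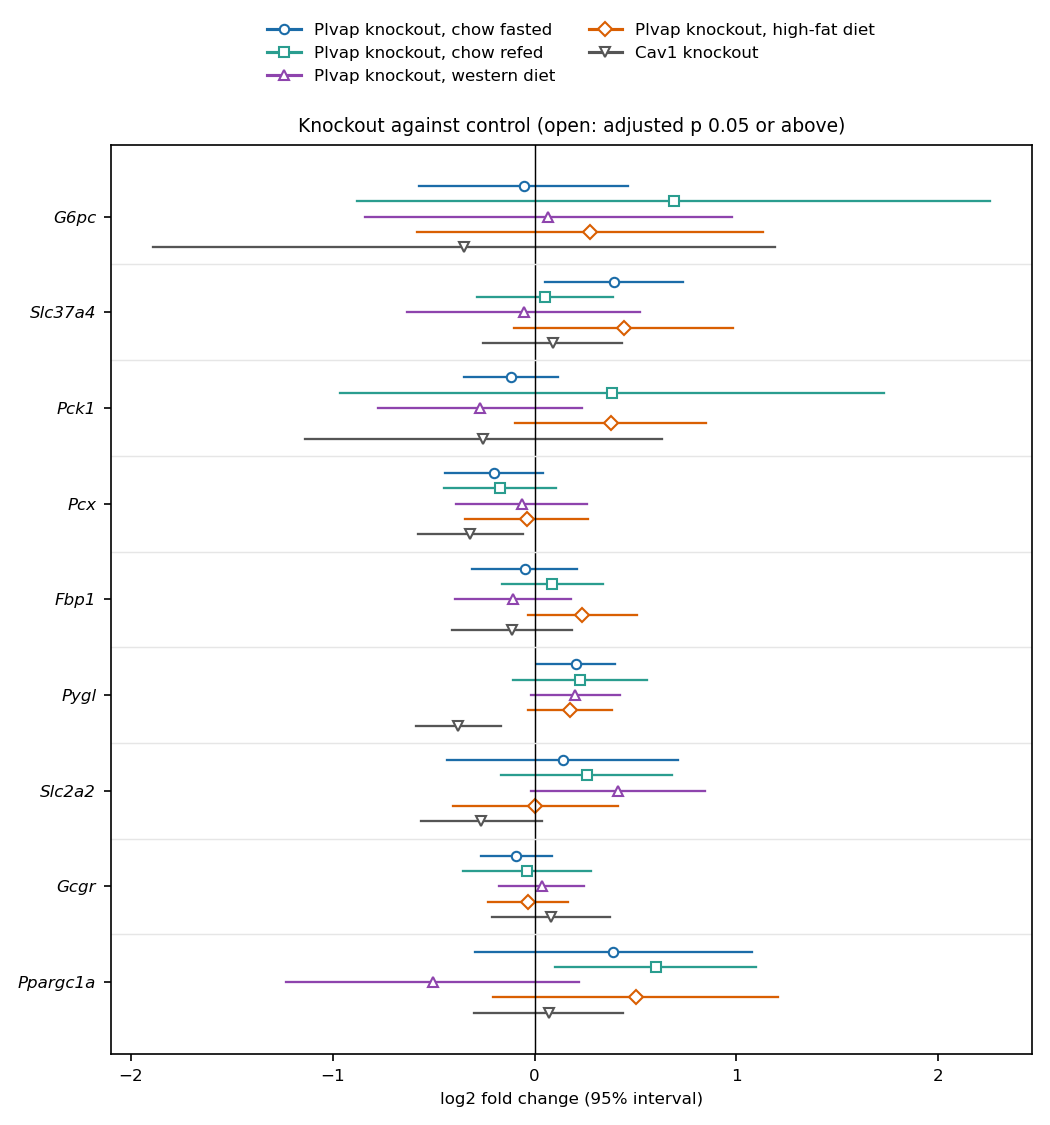
Log2 fold change of each of the 9 genes in 5 knockout comparisons, with 95% intervals from the quasi-likelihood fit. All 45 symbols are open because no adjusted p was under 0.05, and the widest interval is that of G6pc after refeeding (-0.88 to 2.26).

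Pygl, the enzyme of glycogen breakdown, was the exception once the 4 Plvap comparisons were averaged. Its log2 fold changes were 0.21 on chow fasted, 0.22 refed, 0.20 on western diet and 0.18 on high-fat diet, none of them called alone. Livers of the 2 genotypes overlapped in each state: fasted controls ran from 232 through 264 to 297 CPM, and fasted knockouts were at 315, 316, 339, 261 and 296 CPM. The western controls were at 278, 319, 317, 336 and 289.5 CPM and the western knockouts at 335, 367, 362 and 360.4 CPM, so that 3 knockouts were above all controls. In the joint fit the mean effect was 0.21 ± 0.06 (95% interval 0.09 to 0.32, adjusted p = 0.0212), a fitted ratio of 1.15. That made 1 of 9 members called, where 5.58% of 14234 genes were. Without refed knockout D the adjusted p was 0.0503 and with no filter on low counts 0.0593. The difference of the Pygl effect between states was -0.04 to 0.03 on the log2 scale in all 4 tested pairs, with 95% intervals within -0.34 to 0.35.

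The summed RNA of the hepatocyte markers moved with the same contrast. The 7 markers summed to 54700 to 68600 CPM in fasted controls and 90100 to 113000 in fasted knockouts, and the groups were also apart after refeeding, on western diet and on high-fat diet. In the mean over the 4 states 3 of the 7 rose, led by albumin (Alb, log2 fold change 0.88 ± 0.07, adjusted p = 6.66e-11) with Apoa1 (0.30 ± 0.07) and Ttr (0.27 ± 0.07). Apob, Cps1, Serpina1c and Fgb did not pass the test. Alb was the largest part of the sum, with a median of 48400 CPM over all livers beside 73000 CPM for the list. In single states Alb alone passed, on chow fasted (0.97) and on high-fat diet (1.13). No marker passed after refeeding or on western diet. Log2 fold changes were above 0 for 6 of 7 markers fasted, 6 refed, 5 on western diet and 5 on high-fat diet. The part of these changes in the Pygl value was not tested.

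Whether the genotype effect differed between states was tested as an interaction. In each of the 4 contrasts 0 of 9 members were called, as were 0% of all genes in each (0 for refed minus fasted, western diet minus chow, high-fat diet minus chow and western minus high-fat diet). No member had an unadjusted p under 0.05 there, although over all genes 1192, 437, 1164 and 1546 did, and DESeq2 called 0 members and 5, 2, 12 and 56 genes. The member with the widest contrast was Ppargc1a, whose genotype effect differed by -1.005 ± 0.48 between western and high-fat diet (95% interval -2.02 to 0.01).

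In the Cav1 experiment 0 of 9 members were called, where 4.68% of 12978 genes were. At an unadjusted p under 0.05 there were 2, Pygl and Pcx, beside 2415 of all genes, and DESeq2 called 1 member and 939 genes. Pygl and Pcx had no overlap between the groups, as had 13.1% of the genes tested. Pygl was at 486, 422.6, 512 and 510.5 CPM in the wild types and at 380.9, 343, 351 and 398 CPM in the knockouts, all 4 of them below the wild types. Its log2 fold change was -0.38 ± 0.10 with an adjusted p of 0.0524, the opposite sign to the Plvap comparisons, which share no livers with it. Pcx was at 637, 545, 551 and 719 CPM in the wild types and 479, 425.9, 502 and 542 CPM in the knockouts, a log2 fold change of -0.32 ± 0.12 with an adjusted p of 0.176. The Pygl call turned with the setting: its adjusted p was 0.00501 with DESeq2, 0.0499 with DESeq2's size factors in edgeR, 0.0127 with no filter and 0.0361 without wild type B. G6pc (72.8 to 488 CPM in knockouts, 116 to 437 in wild types) and Pck1 (1188 to 1964 and 872 to 2750) overlapped fully between the groups. The 7 hepatocyte markers summed to 65800 to 75500 CPM in the wild types and 84000 to 112000 in the Cav1 knockouts. Alb, Apoa1 and Fgb passed the test there, all higher. Ttr (log2 fold change 0.33) and Cps1 (0.08) did not pass, nor did Apob (-0.10) and Serpina1c (-0.16), which were lower. The part of the hepatocyte markers in the Pygl and Pcx values was not tested.

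Refeeding gave the largest changes among these genes, with the limit that the refed livers are a table of their own. In controls 4 of 9 members were called (3 lower, 1 higher) at a background of 46.9% of all genes, and in knockouts 2 of 9 (both lower) at a background of 47.2%. Neither count exceeds its background share. In controls 2 of 9 members had no overlap between refed and fasted livers, beside 33.4% of all genes tested. In knockouts 2 of 9 had none, beside 34.3%. Median log2 fold changes were -0.30 in controls and -0.18 in knockouts, beside 0.01 over all genes in both. The control and knockout contrasts share no livers, but both compare the same 2 tables. Same-lettered refed livers of the 2 genotypes also deviated together (r from 0.286 to 0.326). Markers of other liver cells moved with this contrast. All 8 Kupffer cell markers were detected, and they summed to 238 to 366 CPM in refed against 463 to 742 CPM in fasted controls, and to 318 to 366 against 657 to 927 CPM in knockouts. The 8 stellate cell markers were also apart in knockouts (321 to 375 CPM refed, at most 434 CPM fasted, without overlap), and the 8 sinusoidal endothelial markers in controls (205 to 212 and 214 to 249 CPM). Their part in the results on refeeding was not tested.

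Ppargc1a fell most. It was at 4.06, 4.32, 4.59 and 5.31 CPM in refed controls against 9.02 through 18.1 to 27.0 CPM in fasted controls, and at 5.13, 6.14, 5.83 and 10.5 CPM in refed knockouts against 13.8, 39.7, 21.8, 20.4 and 24.6 CPM in fasted knockouts. The groups did not overlap in either genotype. The log2 fold change was -1.98 ± 0.35 in controls (adjusted p = 2.32e-05) and -1.77 ± 0.35 in knockouts (adjusted p = 0.000103). G6pc fell in controls by 1.86 ± 0.49 on the log2 scale (adjusted p = 0.00253), to 27.6% of the fasted level, with every refed control (71.6 to 178 CPM) below every fasted control (248.7 to 591 CPM). In knockouts the G6pc difference was -1.10 ± 0.49 with an adjusted p of 0.0627. There refed knockout D, at 511 CPM, lay within the fasted range of 342 to 647 CPM and the other 3 below it, and without that liver the difference was -2.11 with an adjusted p of 0.000647.

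Fbp1, the fructose bisphosphatase, fell in both genotypes. It was at 964, 1147, 1105 and 1174 CPM in refed controls against 1108 through 1486 to 1985 CPM in fasted controls, a log2 fold change of -0.45 ± 0.13 (adjusted p = 0.00375) with overlap of the groups. In knockouts it was at 1156, 1072, 1137 and 1281 CPM refed against 1393, 1491, 1350, 1550 and 1548 CPM fasted, without overlap, a log2 fold change of -0.31 ± 0.13 (adjusted p = 0.0488). The knockout call was lost without any 1 of fasted knockouts A, B, D and E (0.0535, 0.0738, 0.0797 and 0.0883) or refed knockouts A, B and C (0.0874, 0.122 and 0.0832), with DESeq2's size factors (0.0543) and with no filter (0.0618). Across genes, log2 fold changes in the knockout contrast had a Spearman correlation of 0.231 with exon length, and Fbp1 is the shortest member at 1702 bases. With that length trend removed its log2 fold change in knockouts was -0.06 (adjusted p = 0.754), and in controls -0.36 (adjusted p = 0.0189).

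Slc37a4 rose in refed controls, at 161, 203, 227 and 222 CPM against 92.8 through 143 to 177 CPM fasted, with 3 of 4 refed livers above all fasted ones. Its log2 fold change was 0.57 ± 0.22 (adjusted p = 0.0352), and 0.24 in knockouts (adjusted p = 0.43). The control call was lost without fasted control A, B or C (0.0705, 0.0503, 0.0839), without refed control B, C or D (0.0723, 0.0913, 0.0973) and with no filter (0.106). Pck1 did not pass: the log2 difference was -0.74 ± 0.33 in controls (adjusted p = 0.0657) and -0.24 ± 0.34 in knockouts (adjusted p = 0.582). DESeq2 called it in controls (adjusted p = 0.0453), which made 5 of 9 members there. Refed control A (501 CPM) was far below and refed control D (3792 CPM) within the fasted range of 3198 to 4064 CPM. Without refed control D the difference was -1.202 (adjusted p = 0.00554). Adipocyte markers, which could bring Pck1 RNA from fat, summed to 0.526 to 13.6 CPM in refed and 0.205 to 2.10 CPM in fasted controls, where Lep was at 0. Their part was not tested. Pcx, Pygl, Slc2a2 and Gcgr passed in neither genotype, with log2 differences from -0.30 to 0.26.

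**Figure D3:**
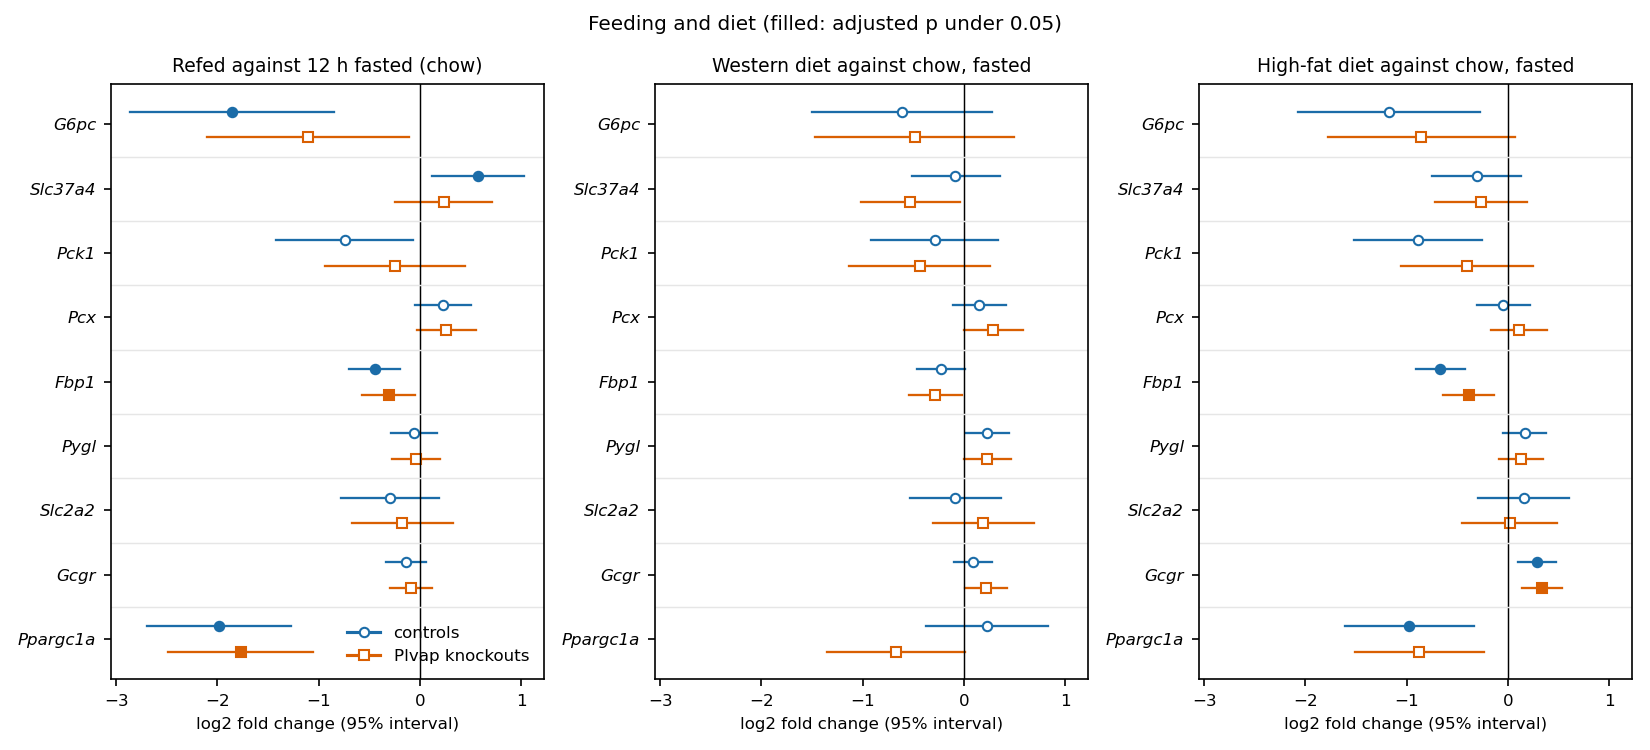
Log2 fold changes of the 9 genes with 95% intervals, in controls (circles) and Plvap knockouts (squares), for refed against fasted chow livers, western diet against chow and high-fat diet against chow. Filled symbols passed the test: Ppargc1a and Fbp1 in both genotypes after refeeding, Fbp1 and Gcgr in both on high-fat diet, and besides these G6pc and Slc37a4 in refed controls and Ppargc1a in high-fat controls. No symbol is filled for western diet.

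The other genes of glucose metabolism, a list of 57, give the setting of the refed state. In controls 29 of 57 were called (18 higher, 11 lower), and in knockouts 29 of 57 (18 higher, 11 lower), close to the background shares above. Of 9 genes of glycolysis and its opposing control 5 rose and 1 fell in controls. Pklr, the liver pyruvate kinase, rose by 1.49 ± 0.28 on the log2 scale, and Pdk4, which blocks pyruvate oxidation, fell by 2.03 ± 0.39. Of 7 reversible steps shared with glycolysis 6 rose in controls, among them Gpi1 (1.03 ± 0.12) and Eno1 (1.038 ± 0.12).

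Of 16 genes that supply gluconeogenic substrate, 8 fell and 3 rose in refed controls, and 5 fell and 2 rose in refed knockouts. In controls Gk, the glycerol kinase, fell by 1.14 ± 0.19 and Slc38a4, an amino acid transporter, by 0.93 ± 0.18 on the log2 scale, and Mpc1, a subunit of the mitochondrial pyruvate carrier, by 0.74 ± 0.20. Of 11 genes of glycogen metabolism 2 rose and 2 fell in controls, with Gbe1, the branching enzyme, 0.66 ± 0.18 higher and Ugp2, which makes UDP-glucose, 0.74 ± 0.18 lower. Of 14 regulators 2 rose and 0 fell in controls (Hnf4a 0.60 ± 0.15 and Esrra 0.44 ± 0.16), and 4 rose and 3 fell in knockouts.

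**Figure D4:**
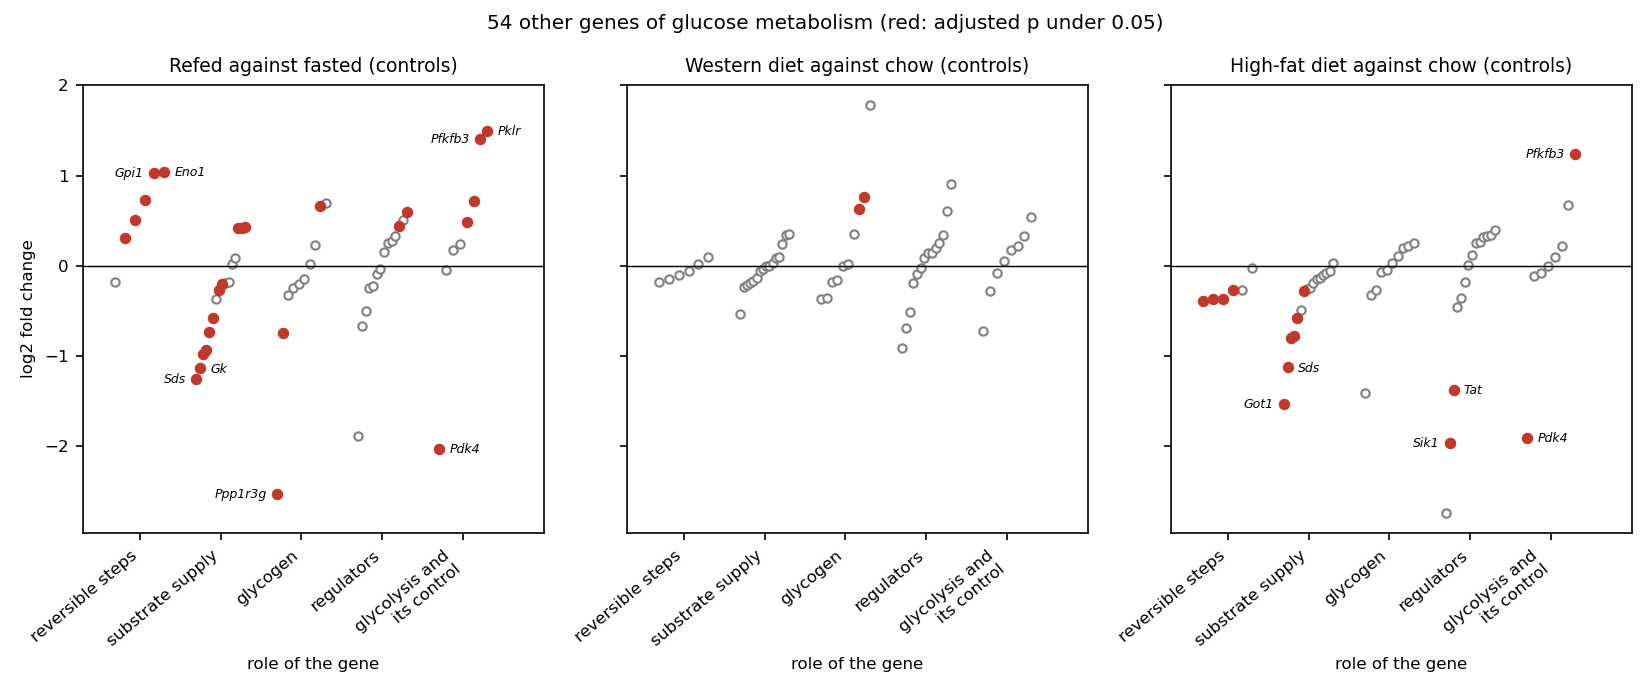
Log2 fold changes of 54 of the 57 other genes of glucose metabolism by role, in control livers, for refed against fasted, western diet against chow and high-fat diet against chow. Red points passed the test, 26, 2 and 14 of 54 in that order, and names mark called genes beyond 1 on the log2 scale. Pklr reaches 1.49 after refeeding, and Pdk4 lies at -2.03 after refeeding and -1.92 on high-fat diet.

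Diet was compared with chow in fasted livers, across tables. On western diet 0 of 9 members were called in controls (background 1.81%) and 0 of 9 in knockouts (background 2.27%). At an unadjusted p under 0.05 there were 1 (Pygl) and 3 (Slc37a4, Fbp1 and Gcgr), beside 2091 and 2188 of 14234 genes, and DESeq2 called 0 members in both. The log2 differences ran from -0.61 (G6pc) to 0.23 (Pygl) in controls and from -0.67 (Ppargc1a) to 0.29 (Pcx) in knockouts. Among the 57 other genes, Gys2, the liver glycogen synthase, rose by 0.76 ± 0.18 and Ugp2 by 0.62 ± 0.16 in controls, and Got1, an aspartate aminotransferase, fell by 1.33 ± 0.36 in knockouts.

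On both diets the 8 stellate cell markers were lower in knockouts than in chow-fasted knockouts (at most 434 CPM), without overlap. They summed to 301 to 389 CPM in western and 315 to 385 CPM in high-fat knockouts. Within each diet the genotypes overlapped, with western controls at 357 to 401 CPM and high-fat controls at 307 to 393 CPM. The part of these markers was not tested. On high-fat diet 3 of 9 members were called in controls (2 lower, 1 higher, background 8.46%). In knockouts 2 of 9 were called (1 lower, 1 higher, background 15.4%). The groups did not overlap for 3 of 9 members in controls, beside 7.39% of all genes tested. In knockouts this held for 1 of 9, beside 9.44%. Fbp1 was at 1107, 1024, 921, 921 and 741 CPM in the high-fat controls, all below the fasted chow controls (1108 to 1985 CPM). Its log2 fold change was -0.67 ± 0.12 (adjusted p = 0.000447) in controls and stayed past the threshold without any single liver. In knockouts it was -0.39 ± 0.12 (adjusted p = 0.0287), at 973, 1364, 1140, 1037 and 1039 CPM. That call was lost without chow-fasted knockout B, D or E (0.0511, 0.0615, 0.0628), without high-fat knockout A, D or E (0.0802, 0.0614, 0.065) and with the length trend removed (0.0809).

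Gcgr, the glucagon receptor, was higher on high-fat diet in both genotypes. It was at 344, 350.2, 357, 352 and 374 CPM in high-fat controls and 276 to 309.8 CPM in chow-fasted controls, without overlap, a log2 fold change of 0.29 ± 0.09 (adjusted p = 0.0447). High-fat knockouts were at 362, 346, 362, 338 and 325 CPM and chow-fasted knockouts at 266, 257, 318, 295 and 252 CPM, again without overlap, with 0.34 ± 0.10 (adjusted p = 0.0152). With DESeq2's size factors the adjusted p in controls was 0.0505, and it was 0.0726 after removal of mitochondrial genes and of genes listed at 0 throughout a table. The control call was lost without each of its 11 livers in turn (adjusted p from 0.0503 to 0.0959), while the knockout call held without each of its 10. With no filter neither passed (0.267 and 0.107). With TMM factors computed within each table the chow-fasted control mean of Gcgr was 272 CPM, against 294 CPM with joint factors, and the high-fat control mean 345 against 355 CPM.

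Ppargc1a fell on high-fat diet in controls, at 15.4, 10.8, 5.01, 5.09 and 9.01 CPM against 9.02 through 18.1 to 27.0 CPM on chow, with overlap. The log2 fold change was -0.97 ± 0.31 (adjusted p = 0.048), and in knockouts the difference was -0.87 ± 0.32 (adjusted p = 0.0553). The control call was lost without chow-fasted control B, C, D or F (0.0938, 0.0516, 0.12, 0.0875) or high-fat control B, C, D or E (0.0649, 0.15, 0.128, 0.0865). In knockouts it was gained without chow-fasted knockout A (0.033) or high-fat knockout B (0.00844). With no filter the control call was lost (0.133), and the knockout call was gained with DESeq2 (0.0336) and with the length trend removed (0.0459). Pck1 in high-fat controls (2683, 2173, 1695, 1539 and 1489 CPM) lay below all chow-fasted controls, yet its difference of -0.89 ± 0.31 had an adjusted p of 0.0689. That p was 0.0287 with DESeq2 and 0.0497 without high-fat control A. G6pc differed by -1.17 ± 0.44 in controls (adjusted p = 0.0952), and Pcx, Pygl, Slc2a2 and Slc37a4 by -0.31 to 0.16.

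Among the 57 other genes 16 were called in high-fat controls, 2 higher and 14 lower, beside 8.46% of all genes. In high-fat knockouts 12 of 57 were called, 5 higher and 7 lower, beside 15.4% of all genes. Of the 7 reversible steps 5 fell in controls, among them Gapdh (-0.37 ± 0.10). Of 16 genes of substrate supply 6 fell, among them Got1 (-1.53 ± 0.33) and Gpt2, an alanine aminotransferase (-0.78 ± 0.19). Pdk4 fell by 1.92 ± 0.37, and Pfkfb3, which makes an activator of glycolysis, rose by 1.24 ± 0.33.

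Western and high-fat diet livers share 1 table and were compared directly. Between controls 0 of 9 members were called (background 2.09%). At an unadjusted p under 0.05 there were 3, beside 2050 of 13533 genes, and DESeq2 called 2 members and 591 of 14140 genes. Like 4.42% of all genes tested, Ppargc1a had no overlap between these groups. It was at 17.1, 19.3, 19.7, 25.8 and 24.5 CPM on western diet, above all high-fat controls (5.01 to 15.4 CPM). The log2 difference was 1.198 ± 0.33 (adjusted p = 0.0709), with an adjusted p of 0.00583 by DESeq2, 0.045 with those 2 groups alone and 0.0296 without high-fat control A. Fbp1 differed by 0.44 ± 0.13 (adjusted p = 0.0819; 0.0181 by DESeq2) and Pck1 by 0.60 ± 0.23 (adjusted p = 0.195). Between knockouts 0 of 9 were called (background 8.45%), with 0 at an unadjusted p under 0.05 and 0 by DESeq2, beside 3628 and 1695 genes. Ppargc1a differed by 0.19 (-0.54 to 0.92). Of the 57 other genes 2 were called between controls, both higher on western diet, among them Gys2 (0.73 ± 0.19), and between knockouts Gk (0.85 ± 0.19) and Pdk4 (1.15 ± 0.33) were higher and Aqp9, a glycerol channel (-0.43 ± 0.13), and Ppargc1b, a paralog of Ppargc1a (-1.07 ± 0.29), lower. Adipocyte markers summed to 0.484 to 28.0 CPM in western and 0.374 to 22.3 CPM in high-fat controls. Sinusoidal endothelial markers summed to 162 to 213 CPM in western and 229 to 256 CPM in high-fat controls, without overlap, and to 190 to 218 and 229 to 293 CPM in knockouts. The part of either list was not tested.

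In the knockout comparisons few of the 57 other genes passed. After the 12 h fast on chow 3 of 57 were called, where 2.25% of all genes were. On chow fasted Slc16a1, a lactate and ketone carrier, fell by 0.73 ± 0.13 (adjusted p = 0.0121) from 119 ± 12.7 CPM (SD, n = 6) to 72.2 ± 17.6 CPM (SD, n = 5), without overlap. Of all genes tested there 2.92% had no overlap. Foxo1, a forkhead factor that insulin inactivates, rose by 0.68 ± 0.14 (adjusted p = 0.019), and Sik1, a kinase that restrains cAMP-driven transcription, fell by 0.97 ± 0.22 (adjusted p = 0.0393). By edgeR 0 of 56 were called after refeeding, 0 of 57 on western diet and 0 of 57 on high-fat diet, with 2, 2 and 17 at an unadjusted p under 0.05. Over all genes 1024 of 13228 met that threshold after refeeding, and 1325 and 1873 of 13533 on western and high-fat diet. Over the mean of 4 states 3 of 57 were called, where 5.58% of all genes were. All 3 fell: Ldha, the lactate dehydrogenase (-0.35 ± 0.09), Slc16a1 (-0.42 ± 0.11) and Mdh2, the mitochondrial malate dehydrogenase (-0.14 ± 0.04). In Cav1 knockouts 2 of 57 were called, both lower, where 4.68% of all genes were called. There 8 of 57 had no overlap, beside 13.1% of all genes tested. Among those called, Gbe1, the glycogen branching enzyme (-0.60 ± 0.13, adjusted p = 0.0223) fell, without overlap.

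Variation within groups was compared between the members, without a background of other gene pairs. The deviation of each liver from its group mean (log2 CPM) was correlated for the 36 pairs of members over 46 livers in 10 groups; these values describe livers that share a library and its depth, and carry no test. The median r was 0.261, and 28 pairs were above 0. G6pc and Pck1 had the highest value (0.719), followed by Pcx with Slc2a2 (0.713) and Slc37a4 with Pcx (0.665). G6pc with Pcx was at 0.152, and Gcgr had 7 of its 8 values below 0, down to -0.276 with Pygl.

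**Figure D5:**
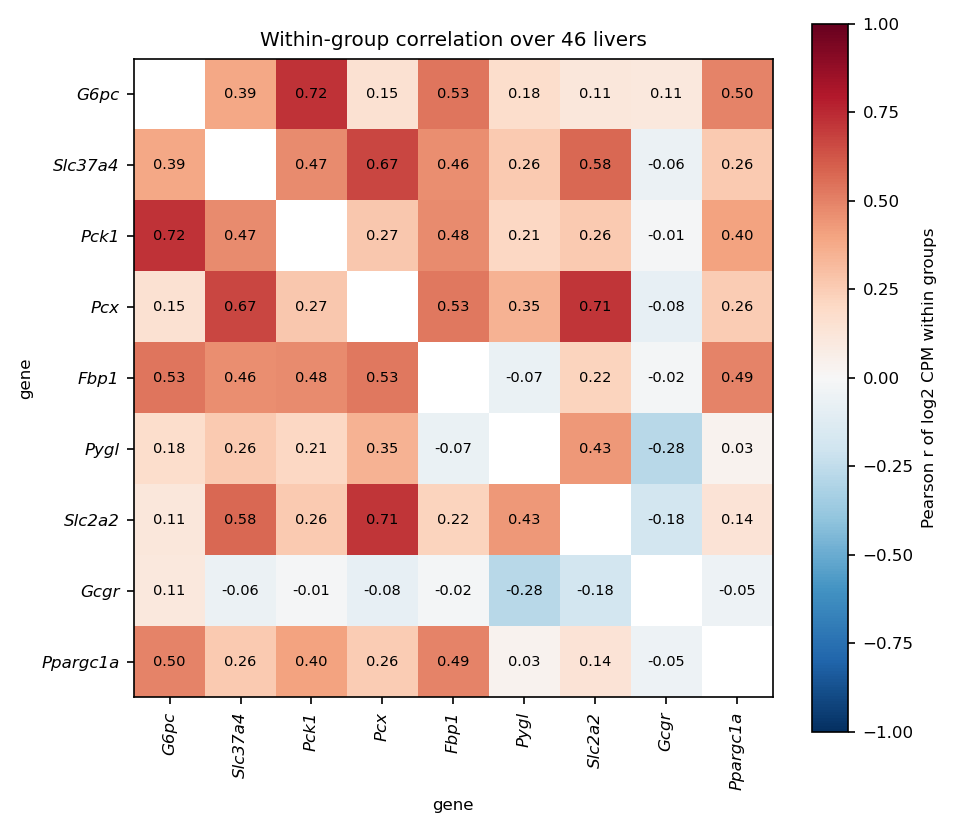
Pearson r of the deviations from the group mean (log2 CPM) between each pair of the 9 genes over 46 livers. G6pc with Pck1 (0.719) and Pcx with Slc2a2 (0.713) are highest, and the Gcgr row lies near or below 0.

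The genes nearest to G6pc by the same measure, among 12191 with a mean of at least 1 CPM, were Angptl4 (0.75), Igfbp1 (0.741), Pck1 (0.719), Slc25a51 (0.698) and Klf15 (0.688). Those nearest to Pck1 were Mknk2 (0.884), Igfbp1 (0.76), Slc15a4 (0.752), Arhgef37 (0.731) and G6pc. Igfbp1, which encodes a binding protein of insulin-like growth factors that insulin represses, is in both lists. In fasted controls Igfbp1 ranged from 38.6 to 589 CPM and in refed controls from 3.52 to 202 CPM.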

How the data were processed

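Total RNA of 46 livers was extracted with a Monarch kit and sequenced from NEBNext Ultra libraries, per the labels' protocols. STAR 2.7.8a, featureCounts 2.0, FastQC 0.11.9 and MultiQC 1.10.1 on GRCm39 are named in the submitters' processing notes. The authors deposited raw counts per Ensembl gene in 4 tables, with each gene's summed exon length in bases as a column of another unit. The annotation release and the counting strand are not given in the sources used here, so reads of overlapping antisense genes cannot be told apart. Fasting times follow the sample characteristics; the protocol text names 12 h for every chow-fed mouse, which differs for the refed and Cav1 livers.

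Symbols were joined by Ensembl identifier from an annotation on an earlier build and cover 52083 of 55416 genes; genes without one hold 0.764% of counts. Positions in the tables (GRCm39) place G6pc on chromosome 11 from 101258387 to 101268729 (+), Slc37a4 on chromosome 9 from 44308149 to 44314265 (+), Pck1 on chromosome 2 from 172994841 to 173001066 (+), Pcx on chromosome 19 from 4560500 to 4671780 (+), Fbp1 on chromosome 13 from 63012567 to 63036096 (−), Pygl on chromosome 12 from 70237585 to 70278262 (−), Slc2a2 on chromosome 3 from 28752052 to 28785508 (+), Gcgr on chromosome 11 from 120421525 to 120429812 (+) and Ppargc1a on chromosome 5 from 51611592 to 51725068 (−). Counts cover all exons of a gene. Promoters are RefSeq sequence on GRCm38.p6.

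Tests used edgeR 4.0.16 in R 4.3.3 (TMM, filterByExpr with minimum count 10 and total 15, robust quasi-likelihood F-test, Benjamini-Hochberg adjusted p under 0.05 over all genes tested). Plvap on chow and Cav1 were fitted on their own tables, the diets on the diet table, and contrasts across tables on the 8 groups of the Plvap line. CPM are TMM-normalized over 46 libraries, and log2 CPM use a pseudocount of 0.5. The script was tested on simulated data. No 2 libraries of a group were identical in 85 pairs. Precision is limited by the number of livers. The p-values weigh a difference against the spread between livers of a group. For contrasts across tables, variation between tables is not in that spread.

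Replicate letters were checked as pairs by the correlation of deviations from the group means across genes. The refed letters met the rule (r from 0.286 to 0.326 in 4 pairs, each above 0.1), those of the other groups did not. Alternatives were DESeq2 1.42.0, edgeR with the size factors of DESeq2, omission of the filter, a block for replicate letter, only the compared groups, removal of a gene length trend, no mitochondrial genes or genes at 0 in a table, TMM within tables, and each library left out. The 9 genes, the 57 other pathway genes and the marker lists were chosen with earlier results of these data known. All 9 members were named in each comparison, and of the other genes at most 4 called ones per role and comparison, by smallest p, besides the 5 nearest to G6pc and to Pck1 among genes with a mean of at least 1 CPM. Of the 57 other genes 3 enter the counts and are not reported by name or in the figure here.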

Additional observations from a re-analysis of the deposited data

Results flagged for a closer look

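In 2 gene and group combinations a liver stood apart from its group by Dixon's test at the 95% level, out of 90 tested, where chance alone marks about 1 in 20. Pcx was at 473 CPM in western diet Plvap knockout D, against 591 to 603 CPM in the other 3 livers. Pygl was at 270 CPM in high-fat diet Plvap knockout D, against 343 to 348 CPM in the other 4.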

How the results depend on the processing

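No log2 fold change that passed the test in the reported fit changed sign under an alternative. The number of members called moved by more than 1.5 times as follows. With no filter on low counts it was 1 for Plvap on chow fasted, 1 for Cav1, 1 for refed against fasted knockouts, 1 for high-fat diet against chow in controls and 1 in knockouts, and 0 for the mean Plvap effect. With DESeq2 it was 1 for Cav1 and 2 for western against high-fat controls. With DESeq2's size factors it was 1 for Cav1 and 1 for refed against fasted knockouts, and with the length trend removed 1 for the latter. With only the 2 compared groups it was 1 for western against high-fat controls. With the replicate block it was 1 for Plvap on chow fasted, where 713 genes were called instead of 289, and 30 instead of 3 after refeeding; the block changed the member count of no other comparison in which it could be fitted. The block could not be fitted for refed or diet livers against chow-fasted ones, since letters lie within tables. In refed livers all 4 control letters correlated best with their own number, and on chow fasted 2 of 5 did. The cause of these shifts was not tested.

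Leaving out each library in turn (84 refits) gave 0 to 1 members for Cav1, 1 to 3 for high-fat diet against chow in controls and 1 to 3 in knockouts, 0 to 1 for the mean Plvap effect, 3 to 4 for refed against fasted controls and 1 to 3 for knockouts, 0 to 1 for western against high-fat controls, and 0 to 0 for the other comparisons. DESeq2 called more genes in all for Plvap on chow fasted (713), refed (59), western diet (21) and high-fat diet (244), where the reported fit called 289, 3, 2 and 38. TMM within each table moved 11 of 90 group means by more than their spread. Ppargc1a had 35 counts in high-fat control D, the library of 6656342 counts, and 67 in high-fat control C. No other member was below 693 counts in any library.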
